A study of Saccharomyces cerevisiae with 12 samples.

Results

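The genes described are URA1, URA2, URA3, URA4, URA5, URA10, LEU1, LEU2, LEU4 and HIS3 of budding yeast, Saccharomyces cerevisiae. They were chosen by name, as steps of uracil, leucine and histidine synthesis of which several serve as selection markers in laboratory strains, and they are 10 of the 7127 features counted. RNA sequencing had been run on 12 libraries in 4 groups of 3, namely WT in glucose, the Rpd3-2SA mutant in glucose, WT in sucrose and the Rpd3-2SA mutant in sucrose. All libraries carried the strain name BY4741, a haploid laboratory strain of the S288C background, and the glucose medium was YPD, a rich medium. Rpd3 is a histone deacetylase, and no label says what the 2SA change is, how that strain was made or selected, or which base medium the sucrose cultures had. The design text calls the replicates biological, with no word on separate cultures or clones, so the p-values measure the spread between these libraries.

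Uracil is built from glutamine, bicarbonate and aspartate by the enzymes that URA2, URA4, URA1, URA5 or URA10, and URA3 encode, in that order. Leucine is built from an intermediate of valine synthesis, by the products of LEU4 or LEU9, then LEU1, then LEU2, and the last step is a transamination by BAT1 or BAT2. HIS3 encodes an enzyme in the middle of the histidine pathway. In yeast the zinc-cluster activator Ppr1 responds to pyrimidine precursors, the zinc-cluster activator Leu3 responds to the product of the LEU4 step, and Gcn4 activates many amino acid genes when amino acids run short. Rich medium supplies uracil and these amino acids from outside.

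Promoter sequences are shown because the letters that Ppr1, Leu3 and Gcn4 are known to bind can be searched without any use of the counts. Which of the Gcn4 matches are printed was chosen with the counts in view. Windows from 250 bases before to 50 bases after each annotated start were read from the RefSeq R64 genome (sacCer3) for 5988 nuclear protein-coding genes and searched on both strands. These are letters of the reference genome. Whether the strains here hold them, at LEU2 and URA3 above all, was not tested. The Ppr1 letters, CGG and CCG with 6 bases of any kind between them, stood in 74 of these windows (1.24%), among them those of 4 of the 10 genes. In the lines that follow, capitals mark the matched letters.
URA1, chrXI:24989-25028, plus strand: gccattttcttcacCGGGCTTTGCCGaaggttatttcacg
URA1, chrXI:25020-25059, plus strand: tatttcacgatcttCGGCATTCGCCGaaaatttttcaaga
URA3, chrV:116001-116040, plus strand: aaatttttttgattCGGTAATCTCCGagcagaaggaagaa
URA4, chrXII:963641-963680, plus strand: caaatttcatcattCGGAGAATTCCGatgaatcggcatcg
LEU1, chrVII:478823-478862, minus strand: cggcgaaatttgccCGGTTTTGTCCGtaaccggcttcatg
The URA3 match began 152 bases before the start codon and the URA4 match 130 bases before it. URA1 held a match 212 bases and another 181 bases before its start, and LEU1 held its match 196 bases before the start.

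The Leu3 letters, CCGG and CCGG with 2 bases of any kind between them, stood in 8 of the 5988 windows (0.134%), and LEU1 and LEU2 were among these 8. They are shown because LEU1 and LEU2 are the consecutive steps after LEU4, and LEU2 was almost without counts.
LEU1, chrVII:478846-478883, minus strand: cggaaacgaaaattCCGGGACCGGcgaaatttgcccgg
LEU2, chrIII:91112-91149, plus strand: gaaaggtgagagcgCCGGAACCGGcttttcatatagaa
The remaining genes held no such letters in this window. The match in LEU1 lay 217 bases before the start and did not overlap its Ppr1 letters. BAT1, a branched-chain aminotransferase gene, was the only one of 12 further leucine and branched-chain genes with this pattern.

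The Gcn4 letters TGACTC stood in 478 windows (7.98%), among them those of URA4, URA10, LEU4 and HIS3. LEU4, HIS3 and URA10 are shown, as LEU4 was the gene called between the sugars and URA10 the gene nearest to a call. URA4, not called and with log2 fold changes of -0.36 in WT and -0.18 in 2SA, held its match 148 bases before the start. As the sequences were picked by the counts, they show no link between these letters and the response to sucrose.
LEU4, chrXIV:426836-426869, minus strand: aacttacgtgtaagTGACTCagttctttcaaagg
HIS3, chrXV:721810-721843, plus strand: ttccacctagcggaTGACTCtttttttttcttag
URA10, chrXIII:807758-807791, minus strand: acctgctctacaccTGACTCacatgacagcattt
URA10, chrXIII:807684-807717, minus strand: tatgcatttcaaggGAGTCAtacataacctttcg
The last of these has the letters on the other strand. The letters also stood in 6 of 7 further histidine genes, in 7 of the 12 leucine genes and in none of 17 further pyrimidine genes. URA2 and URA5 held none of the 3 patterns in this window.

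The libraries held 20775911 to 25360037 counts each. Values below are CPM, the counts scaled to a fixed library total, adjusted by TMM, a method that sets libraries to a shared typical gene, with scaling factors of 0.922 to 1.11. A gene is called changed where the adjusted p of the edgeR quasi-likelihood test is under 0.05 and the fold is over 1.5. The sucrose libraries numbered 2 stood apart in both genotypes. In them, 132 ribosomal-protein genes took 3.86% (WT) and 5.57% (2SA) of the counts, where the remaining sucrose libraries gave 9.28% to 12.7% and the glucose libraries 13.6% to 16.7%. Within each sugar, same-numbered WT and 2SA libraries deviated together.

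The marker genes of the strain came first, since they bear on the labels. BY4741 is known to lack LEU2, MET17 (also named MET15) and URA3 and a part of HIS3. LEU2, the isopropylmalate dehydrogenase gene (YCL018W, sacCer3 chromosome III, 91324 to 92418, plus strand), had 1 count in all 12 libraries together, in WT glucose library 2. This is under the floor of 3 counts over the 12 libraries (0.0109 CPM), and no comparison can be made for it. MET17 had 0 counts in every library. URA3, the orotidine-5'-phosphate decarboxylase gene (YEL021W, chromosome V, 116167 to 116970, plus strand), had 5802 to 11464 counts in every library, or 233 to 521 CPM.

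URA3 was thus counted in all groups, WT included, which goes against the strain name. The table gives no position within the gene and no copy number, so where the URA3 sequence lay in these strains was not tested. Its neighbours were GEA2, 366 bases to its left with 125 to 255 CPM, and the short feature YEL020C-B, 212 bases to its right with 0.281 to 1.32 CPM. Around LEU2, the leucine tRNA gene 351 bases to the left had 0 counts and NFS1, a cysteine desulfurase gene 358 bases to the right, had 127 to 202 CPM. That tRNA feature is 82 bases long and was not compared with other tRNA genes, so its 0 does not show whether the locus was present.

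HIS3, the imidazoleglycerol-phosphate dehydratase gene (YOR202W, chromosome XV, 721946 to 722608, plus strand), had 741 to 1759 counts per library, or 29.8 to 69.1 CPM. Counts per gene do not show which part of it the reads came from. It overlaps the dubious frame YOR203W by 44 bases on the same strand, and that feature had 0 to 5 counts. The flanking genes MRM1 and DED1, a ribosomal RNA methyltransferase and an RNA helicase gene, lay 237 bases to the left and 302 bases to the right. MRM1 had 50.1 to 90.8 CPM and DED1 46.3 to 122 CPM. LYS2 and TRP1, markers that BY4741 keeps, had 63.5 to 104 CPM and 57.1 to 94.5 CPM. ADE2, which it also keeps, had 170 to 1202 CPM, and library number 1 was the highest in every group.

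Mating-type genes were read beside these, as BY4741 is a MATa strain. The a-cell genes MFA1, MFA2 and STE2 had 7.51 to 31.8, 22.3 to 78.4 and 93.5 to 277 CPM, and BAR1 and STE6 had 19.7 to 107 and 104 to 249 CPM. The alpha-cell pheromone gene MF(ALPHA)1 had 0 to 7 counts. STE3, the alpha-cell receptor gene, had 0 to 6 counts in 10 libraries, 73 in WT glucose library 1 and 110 in WT sucrose library 1. The other 2 genes of the alpha-cell list had more. MF(ALPHA)2 had 84 to 152 counts (3.38 to 6.92 CPM). SAG1, the alpha-agglutinin gene, had 873 to 1755 counts (42.5 to 65.7 CPM). These genes differ in length, with 111 bases for MFA1 and 1953 for SAG1. Per kilobase, MFA1 had 67.7 to 286 CPM and SAG1 21.7 to 33.6 CPM, so MFA1 was the higher in every library. BAR1 with 11.2 to 60.5 and STE6 with 26.8 to 64.4 CPM per kb overlapped the range of SAG1. These ranges pool the 4 groups. In 2SA against WT the 5 a-cell genes had median log2 fold changes of -0.29 in glucose and -0.80 in sucrose. None of the 5 was called without a block, where 0.0822% of all features in glucose and 0.0657% in sucrose were called. With the replicate number as a block within each sugar, 1 of the 5 was called lower in sucrose. That fit called 1.84% of all features in sucrose, so this count rests on a single gene.

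**Figure D1:**
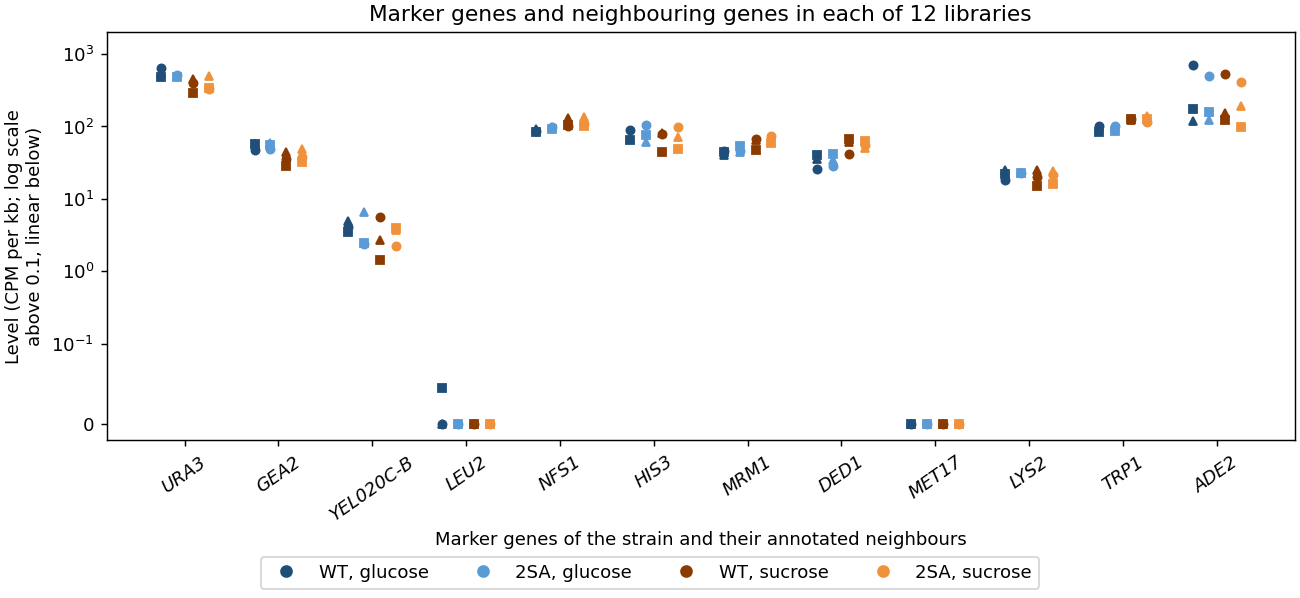
Marker genes by library. Each point is 1 of the 12 libraries, coloured by group with the marker shape giving the replicate, and the vertical axis gives TMM-scaled CPM per kilobase (log scale above 0.1, linear below). URA3 is among the highest of these genes in all 12 libraries, while LEU2 is above 0 in a single library and MET17 in none.

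Levels were set beside each other per kilobase of gene, since the genes differ in length. In WT glucose the highest were URA1, URA3 and URA5, with 579 ± 35.1, 558 ± 83.5 and 533 ± 70.3 CPM per kb (SD, n = 3), and these neighbours did not differ beyond their spread. Far below followed URA4 with 136 ± 34.0 and LEU1 with 111 ± 34.6, then LEU4 with 82.3 ± 4.65 and HIS3 with 73.4 ± 13.6 CPM per kb, and from URA4 to HIS3 each neighbour's libraries overlapped with the next. URA2 had 47.8 ± 8.27 and URA10 had 20.3 ± 4.79 CPM per kb, each apart from the gene above it. In 2SA glucose URA5, URA1 and URA3 led with 534 ± 48.5, 524 ± 61.2 and 499.6 ± 17.4 CPM per kb, and URA10 was again the lowest tested gene with 21.8 ± 7.16. Over all 12 libraries URA1, URA3 and URA5 stood at the 92.1, 91.9 and 91.8 percentile of the 6085 features tested. LEU2 was the only 1 of the 10 genes that did not pass the filter on low counts.

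In sucrose the order among the lower genes was another. LEU4 had 181 ± 22.9 and LEU1 174 ± 78.5 CPM per kb in WT sucrose, next to URA4 with 106 ± 25.9. URA10 had 63.4 ± 30.3 CPM per kb, between HIS3 with 68.3 ± 20.2 and URA2 with 41.2 ± 18.4. URA3, URA5 and URA1 were still the highest in WT sucrose, with 383 ± 85.4, 354 ± 141 and 348 ± 189 CPM per kb. These neighbours overlapped within their spread. The WT SD was wider in sucrose than in glucose for every tested gene but URA4, and for URA3 only slightly (83.5 in glucose and 85.4 in sucrose).

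**Figure D2:**
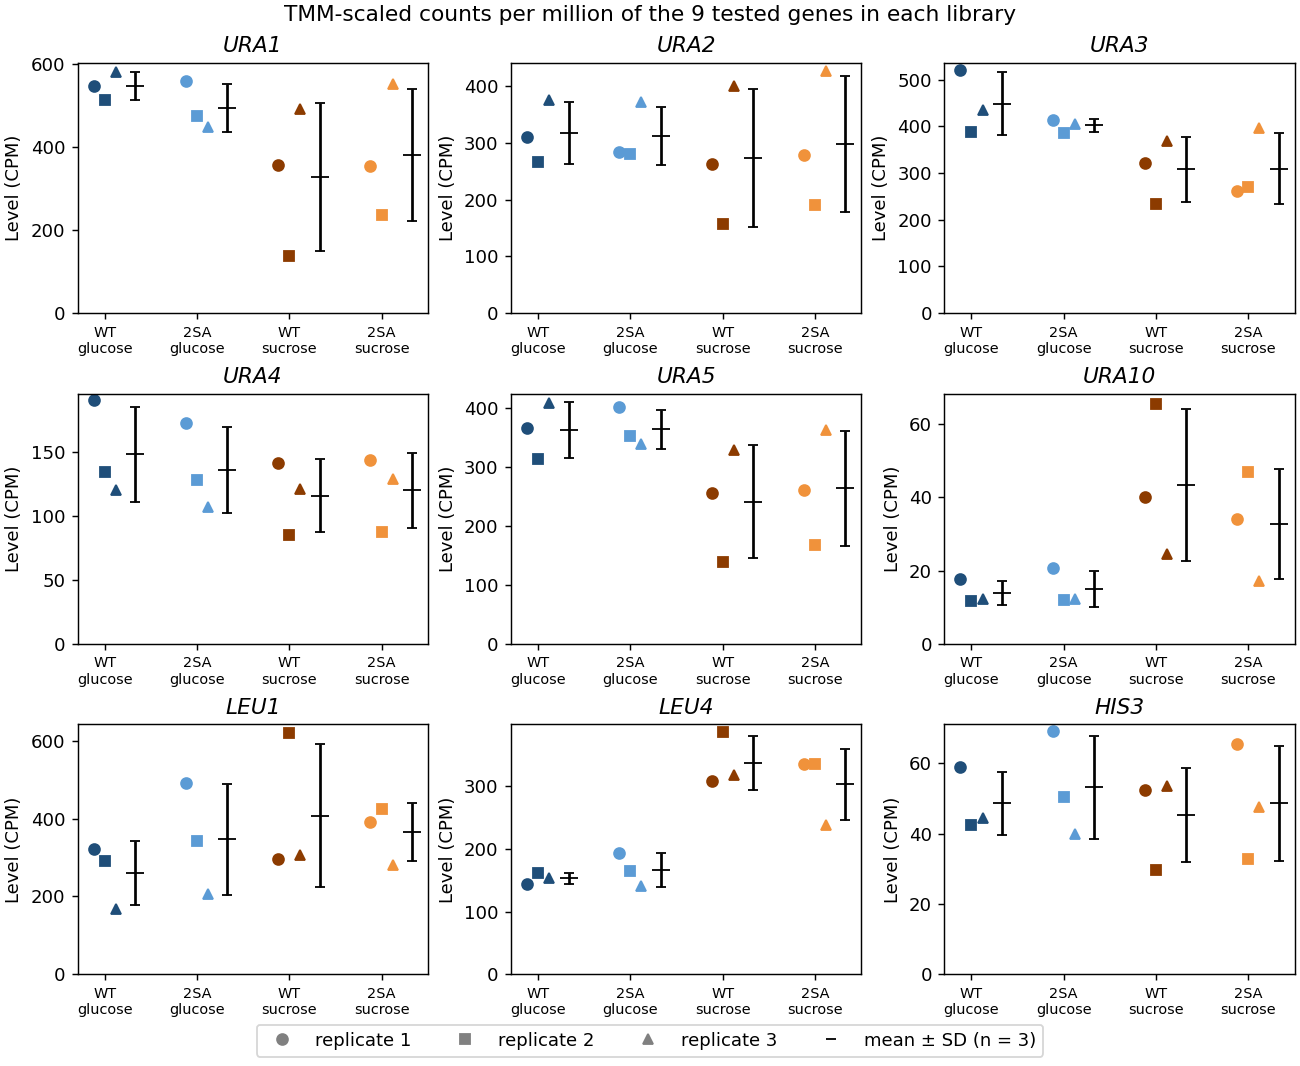
Levels of the 9 tested genes in each library, in TMM-scaled CPM on linear axes that start at 0. Points are libraries with the shape giving the replicate number, bars are the group mean ± SD (n = 3), and the LEU4 points of both sucrose groups lie above all 6 glucose points.

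The comparison of sucrose with glucose asked how growth on the other sugar moved these genes in each genotype. LEU4, the gene for the main alpha-isopropylmalate synthase, was the only gene of the 9 tested that was called, and it was called in both genotypes. Same-numbered WT and 2SA libraries deviated together within a sugar, while the fit without a block treats them as independent. A rise in both genotypes, for LEU4 or any gene below, is therefore not an independent repeat. None of the 6 URA genes was called. Of all 6085 features, 3.43% were called in WT and 1.89% in 2SA, so 1 of 9 rests on a single gene. The 3 libraries of each sugar did not overlap for URA1, URA3, URA10 and LEU4 in WT, and for LEU4 alone in 2SA, whereas 26.3% and 27.2% of all features were apart in this way.

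LEU4 (YNL104C, chromosome XIV, 424895 to 426754, minus strand) had 144, 162 and 153 CPM in WT glucose and 307, 385 and 317 CPM in WT sucrose. The 2SA libraries had 193, 165 and 140.1 CPM in glucose and 335, 334 and 237 CPM in sucrose. Every sucrose library was above every glucose library of either genotype. LEU4 was 2.20-fold higher in WT sucrose, a log2 fold change of 1.14 ± 0.18 (SE), with an edgeR adjusted p of 0.0114. In 2SA it was 1.82-fold higher, a log2 fold change of 0.86 ± 0.18, with an edgeR adjusted p of 0.0382. In bulk RNA, a change in every cell and a change in a share of the cells cannot be told apart.

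The direction of LEU4 held in every alternative fit, but the call did not. In WT the edgeR adjusted p was 0.0586 without WT glucose library 2, 0.0614 without WT glucose library 3 and 0.153 without the 4 libraries numbered 2. For 2SA it was 0.0523, 0.0612 and 0.0646 without WT glucose libraries 1, 2 and 3, and 0.0966, 0.184 and 0.124 without 2SA glucose libraries 1, 2 and 3. Leaving out 2SA sucrose library 1 or 2 gave an edgeR adjusted p of 0.150 or 0.108, and leaving out all libraries numbered 2 gave 0.291. LEU4 overlaps YNL103W-A on the opposite strand by 36 bases, and that feature had 8 to 49 counts.

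LEU9 encodes the second alpha-isopropylmalate synthase and is 81.3% identical to LEU4 over 1637 bases, so how reads that match both were counted bears on their values. LEU9 had 68.9, 86.5 and 89.9 CPM in WT glucose and 24.1, 21.4 and 62.2 CPM in WT sucrose. It had 93.5, 98.7 and 85.0 CPM in 2SA glucose and 48.6, 25.4 and 73.3 CPM in 2SA sucrose. Its sucrose libraries all lay below its glucose libraries of the same genotype, with the number 2 libraries lowest in 2SA and WT and the number 3 libraries highest. LEU9's log2 fold change was -1.19 ± 0.42 in WT (edgeR adjusted p = 0.125) and -0.91 ± 0.42 in 2SA (edgeR adjusted p = 0.281), and LEU9 was not called in this fit. In WT it passed the call without WT sucrose library 3 (log2 -1.87, edgeR adjusted p = 0.0231) and in DESeq2 (log2 -1.21, adjusted p = 0.0463).

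Per kilobase, LEU9 made up 35.3% ± 2.36 (SD, n = 3) of the LEU4 and LEU9 sum in WT glucose and 9.86% ± 6.05 in WT sucrose. In 2SA it made up 36.5% ± 2.90 in glucose and 14.7% ± 8.55 in sucrose. The sugars did not overlap in either genotype. The two-sided exact permutation test gave p = 0.1 for each genotype (0.133 when adjusted over the 4 comparisons of this kind), the smallest p that 3 against 3 libraries allow.

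**Figure D3:**
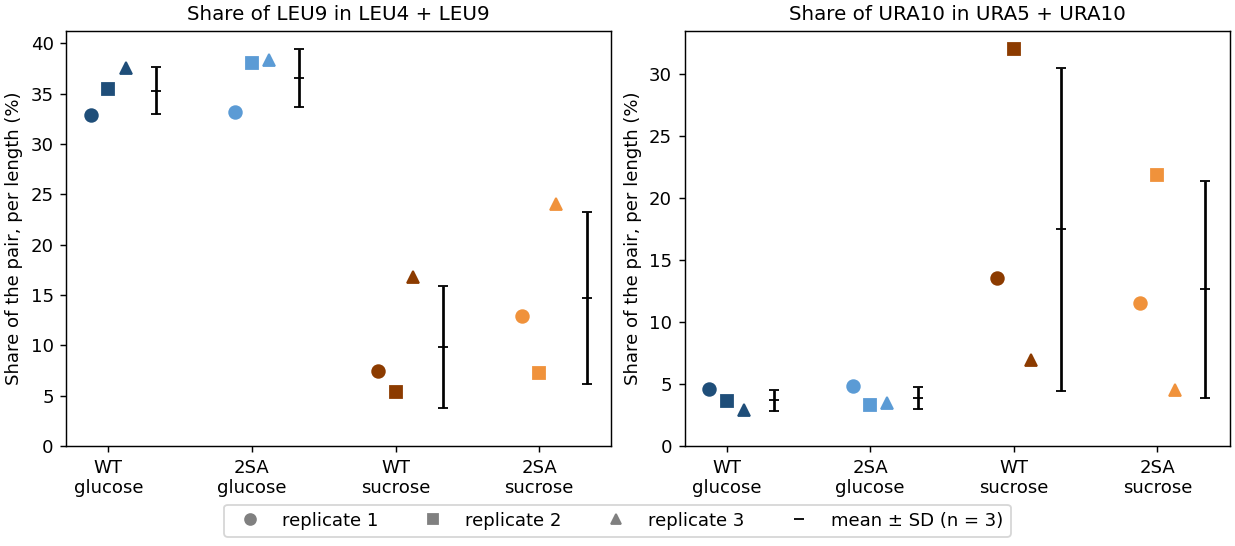
Share of LEU9 in the LEU4 and LEU9 sum, and of URA10 in the URA5 and URA10 sum, in percent of the CPM per kilobase of each pair. Points are libraries and bars are the group mean ± SD (n = 3). The LEU9 share is 35.3% in WT glucose and 9.86% in WT sucrose, and the URA10 share is 3.69% and 17.5%.

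LEU1, the isopropylmalate isomerase gene (YGL009C, chromosome VII, 476313 to 478652, minus strand), had 322, 290.5 and 169 CPM in WT glucose and 296, 619 and 305 CPM in WT sucrose. In 2SA it had 492, 342 and 207 CPM in glucose and 390.1, 424 and 281 CPM in sucrose. The groups overlapped, with WT sucrose library 2 far above the other WT libraries. For LEU1 the log2 fold change was 0.64 ± 0.38 in WT (edgeR adjusted p = 0.323) and 0.07 ± 0.38 in 2SA (edgeR adjusted p = 0.945).

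BAT2, the cytosolic branched-chain aminotransferase gene that acts after LEU2, rose in sucrose in both genotypes. It had 369, 614 and 547 CPM in WT glucose and 1729, 1356 and 1068 CPM in WT sucrose, with no overlap. The 2SA libraries had 435, 405 and 331 CPM in glucose and 1327, 1345 and 911 CPM in sucrose, again with no overlap. The log2 fold change was 1.44 ± 0.26 in WT (edgeR adjusted p = 0.0210) and 1.61 ± 0.27 in 2SA (edgeR adjusted p = 0.0212). Its WT call was lost without WT glucose library 1, 2 or 3 or WT sucrose library 1, with edgeR adjusted p-values of 0.0591, 0.0613, 0.0762 and 0.0642. In 2SA it was lost without 2SA glucose library 1, 2 or 3 or 2SA sucrose library 1 or 2, with edgeR adjusted p-values of 0.0806, 0.129, 0.0782, 0.0770 and 0.0680. Without all libraries numbered 2 both BAT2 calls were lost, with an edgeR adjusted p of 0.153 in WT and 0.211 in 2SA.

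Among the pyrimidine genes, URA10 had the highest fold. URA10, the minor orotate phosphoribosyltransferase gene (YMR271C, chromosome XIII, 806865 to 807548, minus strand), had 17.6, 11.7 and 12.2 CPM in WT glucose and 40.1, 65.5 and 24.5 CPM in WT sucrose. In 2SA it had 20.6, 12.1 and 12.2 CPM in glucose and 34.1, 47.0 and 17.2 CPM in sucrose. The WT groups did not overlap, while in 2SA the lowest sucrose library lay under the highest glucose library. In both sucrose groups library 2 was the highest and library 3 the lowest.

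The fold change of URA10 was 3.13-fold in WT, log2 1.65 ± 0.42 with an edgeR adjusted p of 0.0546, just outside the call. For 2SA it was 2.19-fold, log2 1.13 ± 0.42 with an edgeR adjusted p of 0.182. The WT value passed the call without WT sucrose library 3 (log2 1.91, edgeR adjusted p = 0.0259), without 2SA sucrose library 2 (0.0455) or 3 (0.0371), with library totals (log2 1.80, edgeR adjusted p = 0.0412) and in DESeq2 (log2 1.61, adjusted p = 0.00337). Without the 4 libraries numbered 2 its log2 fold change in WT was 1.11, with an edgeR adjusted p of 0.305.

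URA5, the major orotate phosphoribosyltransferase gene (YML106W, chromosome XIII, 56773 to 57453, plus strand), is 75.5% identical to URA10 over 489 bases. It had 366, 313 and 409 CPM in WT glucose and 256, 139 and 329 CPM in WT sucrose, which overlapped. In 2SA it had 401, 352 and 338 CPM in glucose and 260.5, 167 and 363 CPM in sucrose. Both sucrose groups had library 2 as the lowest, the reverse of the order in URA10. On the log2 scale the fold change was -0.59 ± 0.32 in WT (edgeR adjusted p = 0.284) and -0.47 ± 0.32 in 2SA (edgeR adjusted p = 0.486).

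The share of URA10 in the URA5 and URA10 sum per kilobase was 3.69% ± 0.846 (SD, n = 3) in WT glucose and 17.5% ± 13.0 in WT sucrose. In 2SA it was 3.87% ± 0.862 in glucose and 12.6% ± 8.73 in sucrose. The two-sided exact permutation test gave p = 0.1 in WT and 0.2 in 2SA (0.133 and 0.2 when adjusted over the same 4). Single WT sucrose libraries ranged from 6.91% (library 3) to 32.0% (library 2), so that library decides much of the mean.

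URA2 encodes the enzyme of the committed step, a carbamoyl-phosphate synthetase joined to an aspartate transcarbamylase (YJL130C, chromosome X, 165723 to 172367, minus strand). It had 310, 266 and 376 CPM in WT glucose and 264, 157 and 400.3 CPM in WT sucrose. In 2SA it had 285, 282 and 372 CPM in glucose and 278, 191 and 427 CPM in sucrose. The groups overlapped in both genotypes, and the log2 fold change was -0.21 ± 0.35 in WT (edgeR adjusted p = 0.738) and -0.07 ± 0.35 in 2SA (edgeR adjusted p = 0.946).

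URA4, the dihydroorotase gene (YLR420W, chromosome XII, 963785 to 964879, plus strand), had 191, 134 and 120.5 CPM in WT glucose and 141, 85.4 and 122 CPM in WT sucrose. In 2SA it had 173, 129 and 107 CPM in glucose and 144, 87.8 and 129 CPM in sucrose. The groups overlapped in both genotypes. URA4 had a log2 fold change of -0.36 ± 0.27 in WT (edgeR adjusted p = 0.438) and -0.18 ± 0.27 in 2SA (edgeR adjusted p = 0.776).

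URA1, the cytosolic dihydroorotate dehydrogenase gene (YKL216W, chromosome XI, 25215 to 26159, plus strand), had 547, 515 and 581 CPM in WT glucose and 357, 138 and 492 CPM in WT sucrose. The 2SA libraries had 560, 477 and 449 CPM in glucose and 355, 238 and 552 CPM in sucrose. WT groups did not overlap and 2SA groups did, and library 2 was again the lowest in sucrose. The log2 fold change was -0.73 ± 0.40 in WT (edgeR adjusted p = 0.286) and -0.38 ± 0.40 in 2SA (edgeR adjusted p = 0.671).

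URA3, the last step to uridine monophosphate, had 521, 388 and 436 CPM in WT glucose and 321, 233 and 369 CPM in WT sucrose. In 2SA it had 414, 386 and 405 CPM in glucose and 261, 269 and 396 CPM in sucrose. WT sucrose lay below WT glucose with no overlap, and 2SA groups overlapped. The log2 fold change in WT was -0.54 ± 0.22 (95% interval -1.02 to -0.07), with an edgeR adjusted p of 0.163. For 2SA it was -0.38 ± 0.22, with an edgeR adjusted p of 0.391.

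The 6 URA genes had a median log2 fold change of -0.45 in WT and -0.28 in 2SA, where all 6085 features had 0.04 and 0.02. In each genotype URA10 alone of the 6 had a value above 0. The sucrose libraries numbered 2, which were the lowest for URA1, URA2, URA4 and URA5 in both genotypes, are those with the low ribosomal-protein share, and its part in these values was not tested. With CPM scaled by library totals in place of TMM, the median of all features shifted by 0.13 in WT and 0.12 in 2SA. HIS3 in WT and URA2 in 2SA then had values of 0.02 and 0.03, above 0.

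HIS3 had 59.0, 42.6 and 44.4 CPM in WT glucose and 52.4, 29.8 and 53.6 CPM in WT sucrose. The 2SA libraries had 69.1, 50.3 and 40.0 CPM in glucose and 65.4, 32.8 and 47.6 CPM in sucrose. The sugars overlapped in both genotypes. HIS3's log2 fold change was -0.10 ± 0.30 in WT and -0.13 ± 0.30 in 2SA, each with an edgeR adjusted p of 0.865.

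**Figure D4:**
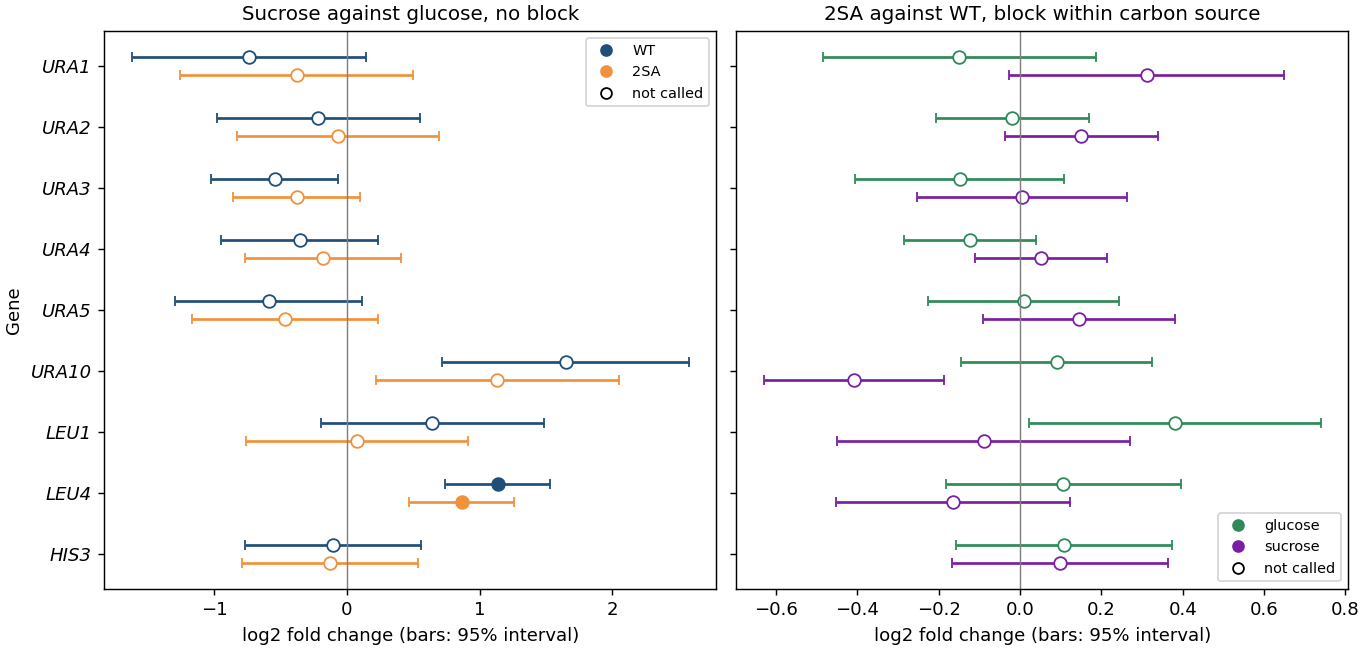
Log2 fold changes of the 9 tested genes with 95% intervals. The left panel gives sucrose against glucose in each genotype without a block, and the right panel gives 2SA against WT in each sugar with the replicate block, on its own narrower scale. Filled points are called. LEU4 (1.14 in WT, 0.86 in 2SA) is called between the sugars, and no gene is called between the genotypes.

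The comparison of Rpd3-2SA with WT asked what the mutant changed in these genes in each sugar. None of the 9 tested genes was called in glucose or in sucrose by edgeR, where 0.0822% and 0.0657% of all features were called, and none had an unadjusted p under 0.05. DESeq2 called none of them in either sugar. The WT and 2SA libraries overlapped for all 9 genes in both sugars, whereas 7.35% of all features in glucose and 6.26% in sucrose were apart. In glucose the log2 fold changes ran from -0.16 (URA3) to 0.41 (LEU1), and in sucrose from -0.41 (URA10) to 0.21 (URA1).

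Same-numbered WT and 2SA libraries were then paired in a fit with the replicate number as a block within each sugar, which called 0.477% of features in glucose and 1.84% in sucrose. It called none of the 9 genes in either sugar. Of all 6085 features, 639 in glucose and 1292 in sucrose had an unadjusted p under 0.05. Of the 9 genes, 1 in each sugar had such a p. In glucose this was LEU1, higher in 2SA in 3 of 3 pairs with a log2 fold change of 0.38 ± 0.16 (edgeR adjusted p = 0.434). In sucrose it was URA10, lower in 2SA in 3 of 3 pairs with a log2 fold change of -0.41 ± 0.10 (95% interval -0.63 to -0.19, edgeR adjusted p = 0.0634). How many of all features went 1 way in 3 of 3 pairs was not counted, so pair counts here and below only describe direction.

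URA3 was lower in 2SA glucose than in WT glucose in 3 of 3 pairs, with a log2 fold change of -0.15 ± 0.11 in the block fit (95% interval -0.41 to 0.11, edgeR adjusted p = 0.700). In sucrose its log2 fold change was 0.00 ± 0.11 (95% interval -0.25 to 0.26, edgeR adjusted p = 0.987). URA1 had -0.15 ± 0.15 in glucose (edgeR adjusted p = 0.771) and 0.31 ± 0.15 in sucrose (edgeR adjusted p = 0.270) in the same fit. URA4 was lower in 2SA in 3 of 3 glucose pairs and higher in 3 of 3 sucrose pairs, at -0.12 ± 0.07 and 0.05 ± 0.07 on the log2 scale (edgeR adjusted p = 0.605 and 0.716). Some pairs were near ties. For URA3, glucose library 2 had 388 CPM in WT and 386 CPM in 2SA. For URA4, sucrose library 2 had 85.4 CPM in WT and 87.8 CPM in 2SA.

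URA2 and URA5 were each higher in 2SA in 3 of 3 sucrose pairs, both at 0.15 on the log2 scale (edgeR adjusted p = 0.331 and 0.451). LEU4 had log2 fold changes of 0.11 ± 0.13 in glucose (edgeR adjusted p = 0.810) and -0.17 ± 0.13 in sucrose (edgeR adjusted p = 0.480). HIS3 had 0.11 ± 0.12 (edgeR adjusted p = 0.788) and 0.10 ± 0.12 (edgeR adjusted p = 0.665). These differences did not pass the test, which does not show that the strains were alike.

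Whether the response to sucrose differed between the genotypes was tested as an interaction. No feature was called, so 0% of the 6085, with 10 at an unadjusted p under 0.05 and none of the 9 genes among these 10. The interaction log2 values ran from -0.57 (LEU1) to 0.36 (URA1), and LEU4 had -0.27 ± 0.25. In the block fit 302 features had an unadjusted p under 0.05 and none was called. URA10 was the only gene of the 9 with such a p, at -0.50 ± 0.14 (edgeR adjusted p = 0.974). LEU4 was called in both genotypes, and URA10 in neither.

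Further genes of these pathways were taken as lists from general knowledge and read in the fit without a block. Between the sugars this fit called 3.43% of all features in WT and 1.89% in 2SA, so 1 called gene in a list rests on that gene. Of 17 pyrimidine genes, 1 was called in WT, higher in sucrose, and none in 2SA, with medians of -0.05 and 0.02 on the log2 scale. The called gene was FCY2, the purine and cytosine permease gene, with a mean of 479.9 ± 33.2 CPM in glucose and 838 ± 176 CPM in sucrose (SD, n = 3). Its WT log2 fold change was 0.80 ± 0.19 (edgeR adjusted p = 0.0434), and leaving out any of the 12 libraries ended the call, with an edgeR adjusted p of 0.162 without WT glucose library 3. In 2SA its log2 fold change was 0.81 ± 0.19, close to the WT value, with an edgeR adjusted p of 0.0567, and its sugars did not overlap in 2SA. The 2SA value passed the call with library totals (edgeR adjusted p = 0.0215), without WT sucrose library 2 or 3 (0.0428 and 0.0445) and in DESeq2 (adjusted p = 0.00102). CDC21, the thymidylate synthase gene, was the lowest of the list in WT at -1.37 and was not called.

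Of 12 leucine and branched-chain genes, 1 was called in each genotype, BAT2 in both cases and higher in sucrose. The share over all features was again 3.43% in WT and 1.89% in 2SA. Their medians were 0.24 in WT and 0.17 in 2SA. OAC1, a mitochondrial carrier of oxaloacetate and isopropylmalate, was picked after its values were seen and was not called. It had 150.2 ± 50.9 CPM in WT glucose and 301 ± 155 CPM in WT sucrose, at log2 1.01 ± 0.35 (edgeR adjusted p = 0.123). The WT sugars overlapped, and the WT sucrose libraries had 186, 477 and 241 CPM. In 2SA the sugars did not overlap, at log2 0.72 ± 0.35 (edgeR adjusted p = 0.311). Of 7 histidine genes none was called, with medians of -0.02 and -0.05, and values in WT ran from -0.98 (HIS1) to 0.29. Of 24 further amino acid genes (GCN4 and genes known as its targets) none was called, with medians of -0.10 and -0.09. Their values ran from -0.84 (ARO4) to 1.34 in WT and from -0.77 to 1.23 in 2SA. Between the genotypes none of the genes of these 4 lists was called by edgeR in either sugar, with or without the block.

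**Figure D5:**
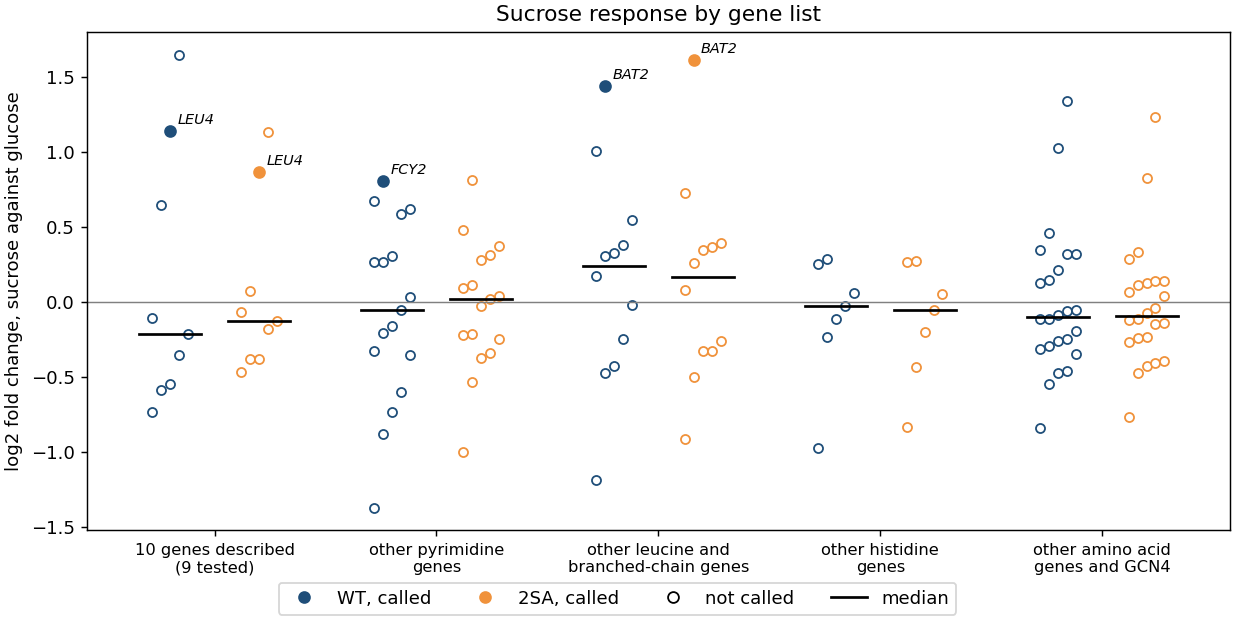
Log2 fold changes of sucrose against glucose for the genes of each list in WT and 2SA. Points are genes, filled and named where called, and bars are list medians. The 9 tested genes have medians of -0.21 in WT and -0.13 in 2SA, and the further leucine genes 0.24 and 0.17.

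The features whose pattern over the 12 libraries was most like that of URA3 were TMA7, VOA1 and NUP192. Their root mean square difference from URA3 on the centred log2 CPM scale was 0.108, 0.123 and 0.126, and the median over all tested features was 0.457. They were picked for the smallest difference, so lying under the median follows from the choice. For LEU4 the features picked in this way were GSP2, MDH3 and DOG2, at 0.124, 0.168 and 0.169, where the median was 0.589.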

How the data were processed

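The authors deposited 1 table of raw read counts per gene for 12 libraries, whole numbers with no normalization. Reads were aligned with Bowtie 0.12.2 to sacCer3, per the submitters' processing notes. The sources used here give no counting program, strand setting or rule for reads with several matches, so overlapping and antisense genes cannot be told apart. Groups and replicate numbers came from the sample titles. The 10 genes, the lists and the alternatives were chosen with earlier results of these data known.

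Features with low counts were removed with edgeR's filterByExpr (minimum count 10), which left 6085, and 1 model with 4 groups was fitted to all 12 libraries with edgeR 4.0.16 in R 4.3.3 (TMM, quasi-likelihood test, 8 residual degrees of freedom, Benjamini-Hochberg adjustment over all features). The scripts were tested on simulated data. The fold over 1.5 and adjusted p under 0.05 follow the design text. DESeq2 1.42.0, library totals, the groups alone, no filter, replicate blocks and leaving out libraries were the alternatives. Named beside the 10 genes were called genes of each list (up to 4), overlapping or flanking features, paralogs, and the 3 features most like URA3 or a called gene. Near copies were sought with BLAST+ 2.17.0. CDC21, HIS1 and ARO4 were named as ends of a range, and OAC1 was chosen after its values were seen.

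Same-numbered WT and 2SA libraries had correlated deviations from their group means within glucose (r = 0.654, 0.610 and 0.545) and within sucrose (0.603, 0.847 and 0.799), so the numbers pair them within a sugar. No 2 replicates agreed within sampling noise (lowest chi-square per degree of freedom 88.4). The locus coordinates of the 10 genes matched the RefSeq R64 annotation.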

Additional observations from a re-analysis of the deposited data

How the results depend on the processing

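The direction of LEU4 between the sugars held in every alternative. The count of all features called for sucrose against glucose was 209 in WT and 115 in 2SA, and became 336 and 199 with library totals, 542 and 347 with DESeq2, 636 and 347 with a replicate block over both sugars, and 10 and 5 when only the compared groups were fitted. Of the 9 tested genes, 1 was called in WT, with 2 under library totals, DESeq2 and the replicate block (LEU4 and URA10) and 0 with only the compared groups, which have fewer samples. In 2SA the 1 called became 0 with only the compared groups. For 2SA against WT, 5 features in glucose and 4 in sucrose became 31 and 46 with DESeq2, 1 and 0 with only the compared groups, 9 and 10 with the replicate block over both sugars, 29 and 112 with the replicate block within each sugar, and 10 and 15 with that block and without the libraries numbered 2, an alternative chosen after seeing the data. Leaving out single libraries gave 12 to 426 features in WT and 3 to 157 in 2SA for sucrose against glucose, 1 to 6 and 1 to 4 for 2SA against WT in glucose and sucrose, and 0 to 0 for the interaction. The count of tested genes called ran from 0 to 2 in WT and 0 to 1 in 2SA, and was 0 throughout in the other comparisons. Without the 4 libraries numbered 2, edgeR called 0 features between the sugars, and between the genotypes 1 in glucose and 0 in sucrose, with 0 of the 9 genes in any comparison. No call turned direction. Values near 0 turned sign with library totals (URA2 0.014 for 2SA against WT in glucose and 0.030 for sucrose against glucose in 2SA, HIS3 0.018 for sucrose against glucose in WT) and with only the compared groups (URA5 -0.0040 for 2SA against WT in glucose, URA3 -0.0023 in sucrose). Without the libraries numbered 2, the values that turned sign were URA5 -0.077 (2SA against WT in glucose), URA3 -0.061, LEU1 0.16 (2SA against WT in sucrose), HIS3 0.029 (the interaction), URA2 0.12, LEU1 -0.041, HIS3 0.066 (sucrose against glucose in 2SA), HIS3 0.037 (sucrose against glucose in WT). With the replicate block within each sugar as well, they were URA5 -0.078 (2SA against WT in glucose), URA3 -0.091, LEU1 0.15 (2SA against WT in sucrose), HIS3 0.048 (the interaction). Leaving out single libraries turned others, with these ranges of the log2 value. For 2SA against WT in glucose they were URA4 from -0.33 to 0.097, URA5 from -0.090 to 0.10, URA2 from -0.16 to 0.12, URA10 from -0.19 to 0.32, LEU4 from -0.0042 to 0.23, HIS3 from -0.11 to 0.30. For 2SA against WT in sucrose they were URA1 from -0.15 to 0.64, URA2 from -0.22 to 0.53, URA3 from -0.21 to 0.18, URA4 from -0.13 to 0.25, URA5 from -0.17 to 0.44, URA10 from -0.75 to 0.019, LEU1 from -0.34 to 0.28, HIS3 from -0.17 to 0.33. For the interaction they were URA4 from -0.046 to 0.38, HIS3 from -0.30 to 0.21, URA2 from -0.20 to 0.55, URA5 from -0.18 to 0.44, URA1 from -0.0063 to 0.79, URA3 from -0.056 to 0.34. For sucrose against glucose in 2SA they were URA4 from -0.33 to 0.029, HIS3 from -0.40 to 0.11, URA2 from -0.41 to 0.18, LEU1 from -0.19 to 0.41. For sucrose against glucose in WT they were HIS3 from -0.26 to 0.12, URA2 from -0.62 to 0.060. The cause was not tested. Scaling by library totals moved none of 40 group levels by more than their SD. Searching only the 250 bases before the start gave 1.04%, 0.117% and 6.25% of promoters with the Ppr1, Leu3 and Gcn4 letters, with no change in which of the 10 genes matched. At this depth counting error is small beside the spread between libraries, and 3 libraries a group limit the precision. Same-numbered libraries of different sugars had correlations of 0.068 to 0.36 for number 1, -0.27 to -0.092 for number 2 and 0.27 to 0.48 for number 3. ADE2 was highest in library 1 of all 4 groups, and STE3 counts above 6 were found only in library 1 of both WT groups. The titles do not say what a number marks, and not every pair was correlated, so the sugar comparisons are given without a block. With the replicate block over both sugars, edgeR called URA10 in WT (log2 1.56, adjusted p = 0.0199), LEU9 in WT (-1.33, 0.0413), OAC1 in WT (0.96, 0.0151), CDC21 in both genotypes (-1.48, 0.00767 in WT and -1.11, 0.0249 in 2SA) and FCY2 in 2SA (0.82, 0.0345). Over all 6085 features this block called 636 in WT and 347 in 2SA, so the list counts that follow rest on single genes. Of 12 leucine genes it called 3 in WT (2 higher, 1 lower) and 1 in 2SA (higher). Of 17 pyrimidine genes it called 3 in WT (1 higher, 2 lower) and 2 in 2SA (1 higher, 1 lower). It called 1 of 7 histidine genes in WT (HIS1, lower) and 1 of 24 further amino acid genes in each genotype (higher). The replicate block within a sugar changed no call of the 9 genes.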
